A study of Homo sapiens with 6 samples.

Results

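The transcripts of 59 enzymes and partner proteins that modify transfer RNA at sites other than the queuosine reaction itself were compared between HEK293T cells with queuine (100Q) and without it (0Q). Members were taken by gene symbol, matched through the Ensembl identifier without its version, and all 59 were found among the 63086 genes of the table and had enough counts to be tested. They were grouped by where they act: 21 act on the wobble nucleotide of at least 1 tRNA, themselves or as a subunit or required partner, and 38 act outside it, 12 of these at position 37 and 26 elsewhere. The 100Q cells were made from 0Q cells by adding queuine, at 100 nM in the sample characteristics and at 1 µM for 24 hours in the treatment protocol, so the dose is not settled. Both groups were grown in medium with dialyzed serum and gave 3 libraries each. HEK293T is an established human embryonic kidney line that carries the SV40 large T antigen, and 1 line stands for all samples.

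Queuine is a base that mammals take from diet and microbes, and cells exchange it for guanine at the wobble position, the anticodon base that reads the last base of a codon, of tRNAs for aspartate, asparagine, histidine and tyrosine. tRNAs carry many other modifications, set by separate enzymes. Those at the wobble position and at position 37, next to the anticodon, tune decoding and hold the reading frame, and those in the body of the molecule support folding and stability. In fission yeast, queuosine in aspartate tRNA stimulates methylation of a nearby cytosine by the homolog of TRDMT1.

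Libraries held 4023956 to 11398835 estimated counts in 100Q and 7264638 to 8035251 in 0Q. Principal components set 100Q replicate 2 apart on the first axis (30.9% of the variance) and 100Q replicate 1 on the second (22.7%), and neither axis separated the groups. Of the marker genes, PTPRC and CD3E of blood cells were at 0 in all libraries and ALB, COL1A2 and PECAM1 stayed under 1 CPM, while COL1A1 was at 25.4 to 31.5 CPM. CPM (the usual per-library scaling) divides the estimated count by the library total times its TMM factor. In bulk RNA, fewer cells of a type and less RNA per cell cannot be told apart. Genes associated with HEK293 were PAX2, EYA1, NEFL, NEFM and INA. The summed level of these 5 was 295 to 342 CPM in 100Q and 351 to 386 CPM in 0Q. The groups of the sum did not overlap, beside 10.6% of all genes tested with groups apart. Most of the sum came from NEFM (mean 167 CPM in 100Q and 186 in 0Q) and NEFL (96.2 and 110). EYA1 and INA also had lower means in 100Q, while PAX2 went the other way (6.85 CPM in 100Q and 4.97 in 0Q). The part of this sum in the results below was not tested.

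No member passed the test between 100Q and 0Q. With the quasi-likelihood test of edgeR and Benjamini-Hochberg adjustment over 14905 genes, no adjusted p of a member lay below 0.987. Over all genes 2 passed, 0.0134% of those tested. At an unadjusted p under 0.05 there were 4 members (TRMT1, ELP5 and TRMU with positive and TRMT6 with negative fold changes), 6.78% of the 59, against 4.73% of all genes tested. DESeq2 and limma-voom called 0 members, each with 4 at an unadjusted p under 0.05. All 3 libraries of a group lay apart from those of the other for 3 members (TRMU, TRMO and TRMT6), 5.08%, against 10.6% of all genes tested. Both shares are those of a small number of genes and neither was tested against the background.

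Log2 fold changes of the members, given as 100Q minus 0Q throughout, ran from -0.55 for ADAT3 to 0.41 for TRMT1. There were 30 positive and 29 negative values, with a median of 0.02, against -0.0027 over all genes tested. The median size was 0.12 regardless of sign, beside a median standard error of 0.15. The wobble members had 12 positive and 9 negative values and a median of 0.04. The members outside the wobble position had 18 positive and 20 negative values and a median of -0.0059, which was 0.01 when libraries were scaled by their size only. Without the 4 wobble members that also act at other positions (NSUN2, ALKBH1, FTSJ1 and TRMT112), the wobble median was -0.04. The 95% interval of the fold change lay within 2-fold in either direction for 57 of the 59 members, all but ADAT3 and TRMO, and within 1.5-fold for 43. Of the 10822 genes tested in the members' CPM range, 10425 had an interval within 2-fold and 8115 within 1.5-fold, shares close to those of the members. Leaving out 1 library moved the fold change by over 1.5 times for 54 of the 59 members, and turned its sign for 25 of these; the other 5 were ADAT3, TRMU, METTL2B, TRMT1 and TRMT6.

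**Figure D1:**
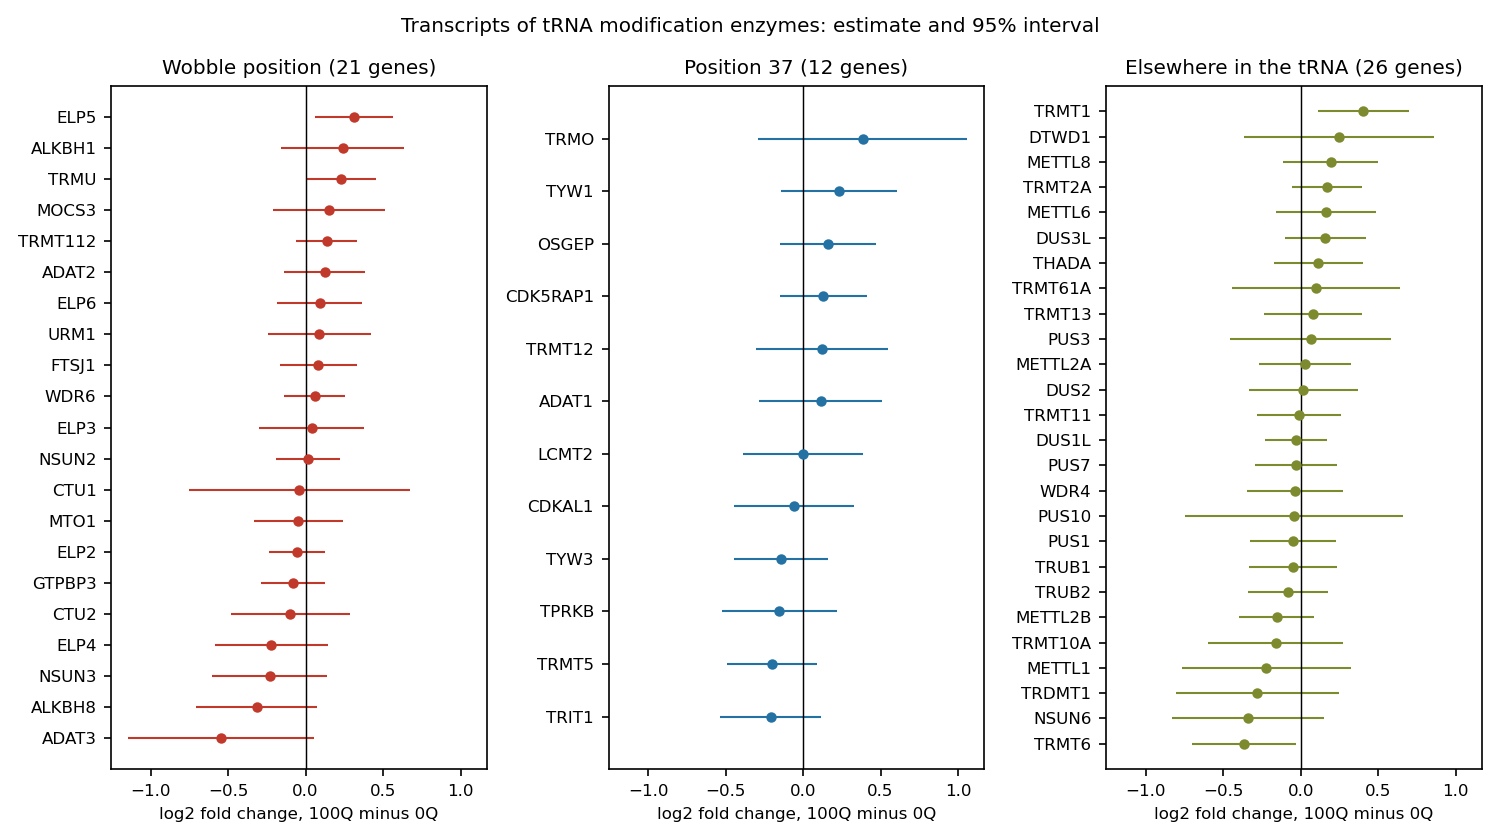
Log2 fold change (100Q minus 0Q) of each of the 59 members with its 95% interval from the edgeR fit, in 3 panels by site of action. Estimates lie between -0.55 and 0.41 on both sides of 0, and the intervals of TRMT1, ELP5, TRMU and TRMT6 leave out 0 before any adjustment for the number of genes.

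**Figure D2:**
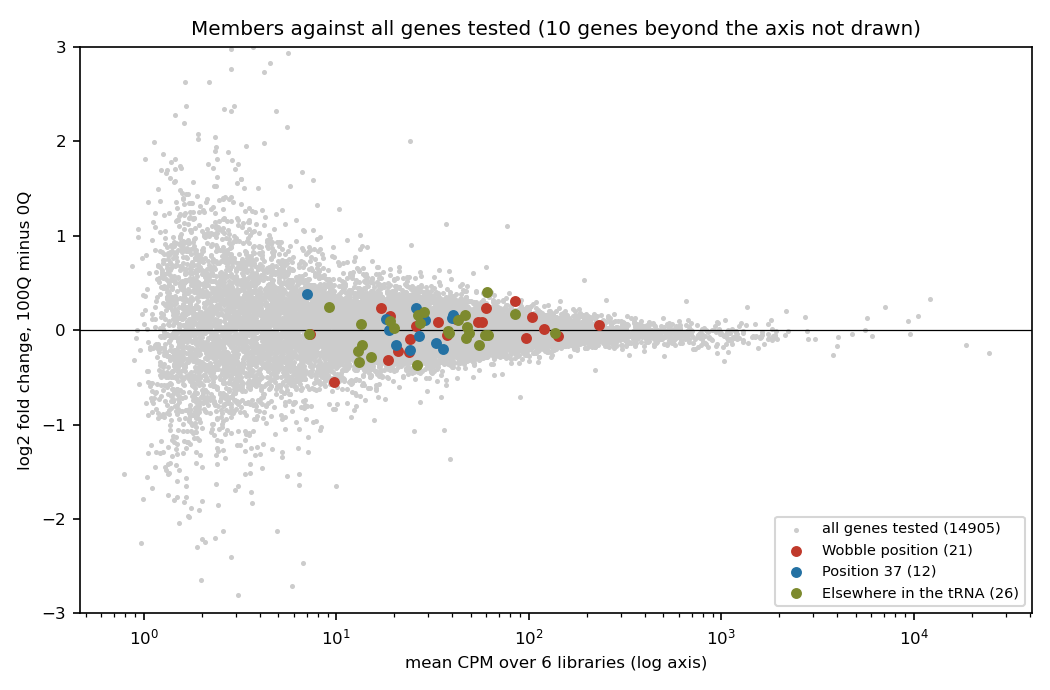
Log2 fold change (100Q minus 0Q) against mean CPM over 6 libraries (log axis) for the 14905 genes tested (grey) and the members (coloured by site of action); 10 genes beyond 3 on the vertical axis are not drawn. Members span 7.003 to 233 CPM and lie inside the cloud of other genes at their level.

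The wobble enzymes were examined by reaction, starting with Elongator, the complex whose ELP3 subunit attaches a carboxymethyl group to wobble uridine. ELP5 (chromosome 17, 7251416 to 7259940; hg38 coordinates here and below), of the accessory subcomplex of Elongator, had 89.6, 112 and 81.0 CPM in 100Q replicates 1 to 3, against 70.4, 81.1 and 73.3 CPM in 0Q replicates 1 to 3. The groups met at their edge, with the lowest 100Q library just under the highest of 0Q. Its log2 fold change was 0.31 (95% interval 0.06 to 0.57), and it was 0.18 without 100Q replicate 2, the highest library (edgeR, Benjamini-Hochberg adjusted p = 0.987 with all libraries and 0.995 without it). Of its annotated exons, 516 bases (17.0%) also belong to CTDNEP1 on the opposite strand, and whether reads were counted by strand is not given.

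The other Elongator subunits had fold changes of both signs. ELP4 had 20.1, 18.8 and 19.1 CPM in 100Q, against 21.7, 19.3 and 26.6 CPM in 0Q, a log2 fold change of -0.22 ± 0.17 (SE) that was -0.08 without 0Q replicate 3. Among the annotated exon bases of ELP4, 5241 (19.2%) also belong to PAX6 on the opposite strand. ELP2, a scaffold of beta propellers and by count the most abundant subunit of the 5, had 137, 149 and 131 CPM in 100Q, against 152, 139 and 142 CPM in 0Q. The groups overlapped for both genes, for ELP4 only because 100Q replicate 1 exceeded 0Q replicate 2. The catalytic subunit ELP3 ran from 24.6 to 29.5 CPM in 100Q and from 22.8 to 30.0 CPM in 0Q, with a log2 fold change of 0.04 ± 0.16, and ELP6, a partner of ELP4 and ELP5, had 0.09 ± 0.13. Per kilobase of the canonical transcript, mean levels over all libraries were 56.7 CPM for ELP5, 40.3 for ELP6, 16.8 for ELP2, 8.28 for ELP3 and 2.59 for ELP4. Transcript ends in use were not measured, so this order rests on the annotated length, and ELP4 and ELP2 have long annotated transcripts (8093 and 8432 bases).

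Thiolation of the same uridine is carried out by CTU1 and CTU2 with sulfur from URM1, a ubiquitin-like carrier that MOCS3 activates. MOCS3 had 21.9, 18.5 and 19.4 CPM in 100Q, against 18.5, 16.3 and 19.1 CPM in 0Q, and a log2 fold change of 0.15 ± 0.17 (SE). URM1 had 29.7, 43.8 and 31.0 CPM in 100Q, against 31.0, 34.1 and 31.98 CPM in 0Q. Both genes overlapped between groups, and the high mean of URM1 in 100Q came from replicate 2: its log2 fold change of 0.09 was -0.09 without that library. CTU2 had -0.10 ± 0.18 over a range of 17.3 to 27.4 CPM in 100Q and 22.4 to 27.5 CPM in 0Q, and CTU1 had -0.04 ± 0.33 over 6.75 to 8.06 CPM in 100Q and 4.74 to 9.77 CPM in 0Q.

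ALKBH8 completes the uridine side chain by methylation and hydroxylation, and needs TRMT112, a small activating subunit shared with several methyltransferases. ALKBH8 had 15.3, 15.5 and 18.6 CPM in 100Q, against 24.5, 17.9 and 19.7 CPM in 0Q, a log2 fold change of -0.31 (95% interval -0.71 to 0.08), which was -0.18 without 0Q replicate 1. TRMT112 had 106, 111 and 110.1 CPM in 100Q, against 106, 102 and 89.4 CPM in 0Q, a log2 fold change of 0.14 (-0.06 to 0.33). Each gene overlapped between groups by a single library on either side. The ratio of TRMT112 to ALKBH8, per kilobase, was 34.5, 35.8 and 29.7 in 100Q and 21.7, 28.4 and 22.7 in 0Q, so every 100Q library exceeded every 0Q library. With TRMT11, another partner of TRMT112, the ratio was 6.41, 6.06 and 7.03 in 100Q and 5.98, 5.94 and 5.71 in 0Q, again apart. These were the 2 ratios that did not overlap among 13 computed between partners or paralogs, beside 10.6% of single genes with groups apart; both contain TRMT112, and nothing is read from the count, which was not tested. TRMT112 was first of the 59 members by level per kilobase (128 CPM), and 25.8% of its exons overlap ESRRA on the opposite strand.

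Ribose methylation at the wobble position is made by FTSJ1 with WDR6, whereas THADA directs FTSJ1 to another ribose of the anticodon loop. FTSJ1 had 60.2, 63.5 and 52.4 CPM in 100Q, against 54.8, 59.8 and 50.5 CPM in 0Q. WDR6, the member with the highest CPM, had 238, 259 and 216 CPM in 100Q, against 251, 227 and 205 CPM in 0Q. The groups overlapped for both, with log2 fold changes of 0.08 ± 0.12 and 0.06 ± 0.09 (SE), and THADA had 0.11 ± 0.13. The ratio of WDR6 to FTSJ1, per kilobase, kept within a narrow band, 1.89 ± 0.04 in 100Q and 1.93 ± 0.19 in 0Q (SD, n = 3 per group), and that of WDR6 to THADA was 8.18 ± 1.88 in 100Q and 8.36 ± 1.74 in 0Q.

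Wobble adenosine is deaminated to inosine by ADAT2 with its partner ADAT3. ADAT3 (chromosome 19, 1905399 to 1913447) had 6.52, 7.76 and 9.15 CPM in 100Q, against 12.5, 14.0 and 8.03 CPM in 0Q, and ADAT2 had 47.4, 43.3 and 40.3 CPM in 100Q, against 37.7, 40.4 and 41.7 CPM in 0Q. The lowest 0Q library of ADAT3 fell among those of 100Q, and the groups overlapped for ADAT2 too. ADAT3 had the most negative fold change of the 59, -0.55 (95% interval -1.15 to 0.05), which was -0.38 without 0Q replicate 2 and -0.75 without 0Q replicate 3 (edgeR, Benjamini-Hochberg adjusted p = 0.987, and at least 0.801 in the alternatives). It lies within SCAMP4 on the same strand and shares 34.8% of its exon bases with it, so its counts are uncertain. ADAT2 had 0.12 ± 0.12 (SE).

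Cytosine at the wobble position is methylated by NSUN2 in a leucine tRNA and by NSUN3 in mitochondrial methionine tRNA, where ALKBH1 oxidises the product. NSUN3 had 22.8, 17.0 and 25.7 CPM in 100Q, against 23.2, 28.8 and 26.2 CPM in 0Q, and a log2 fold change of -0.23 ± 0.17 (SE), or -0.10 without 100Q replicate 2. ALKBH1 had 20.9, 16.5 and 18.2 CPM in 100Q, against 17.2, 16.4 and 13.6 CPM in 0Q, and 0.24 ± 0.19. NSUN2 had 127, 127 and 109.8 CPM in 100Q, against 111, 116 and 131 CPM in 0Q, and 0.02 ± 0.10. The groups overlapped for all 3 genes. NSUN3 and ALKBH1, which act in sequence on 1 tRNA, had fold changes of opposite sign, neither past the test.

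In mitochondria, MTO1 and GTPBP3 add a taurine side chain to wobble uridine and TRMU adds sulfur. TRMU (chromosome 22, 46330875 to 46357340) had 66.8, 64.8 and 63.7 CPM in 100Q, against 52.7, 58.9 and 54.5 CPM in 0Q. Every 100Q library exceeded every 0Q library, and its SD in 100Q was 1.55 CPM, around a mean of 65.1. The log2 fold change was 0.23 (95% interval 0.01 to 0.45), with 0.20 to 0.28 when a library was left out, and it did not pass (edgeR, Benjamini-Hochberg adjusted p = 0.987). GTPBP3 had 86.5, 98.8 and 97.4 CPM in 100Q, against 108, 92.5 and 99.1 CPM in 0Q, which overlapped, and a log2 fold change of -0.08 ± 0.10 (SE). MTO1 had -0.05 ± 0.14, over 34.1 to 41.0 CPM in 100Q and 33.8 to 42.2 CPM in 0Q.

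**Figure D3:**
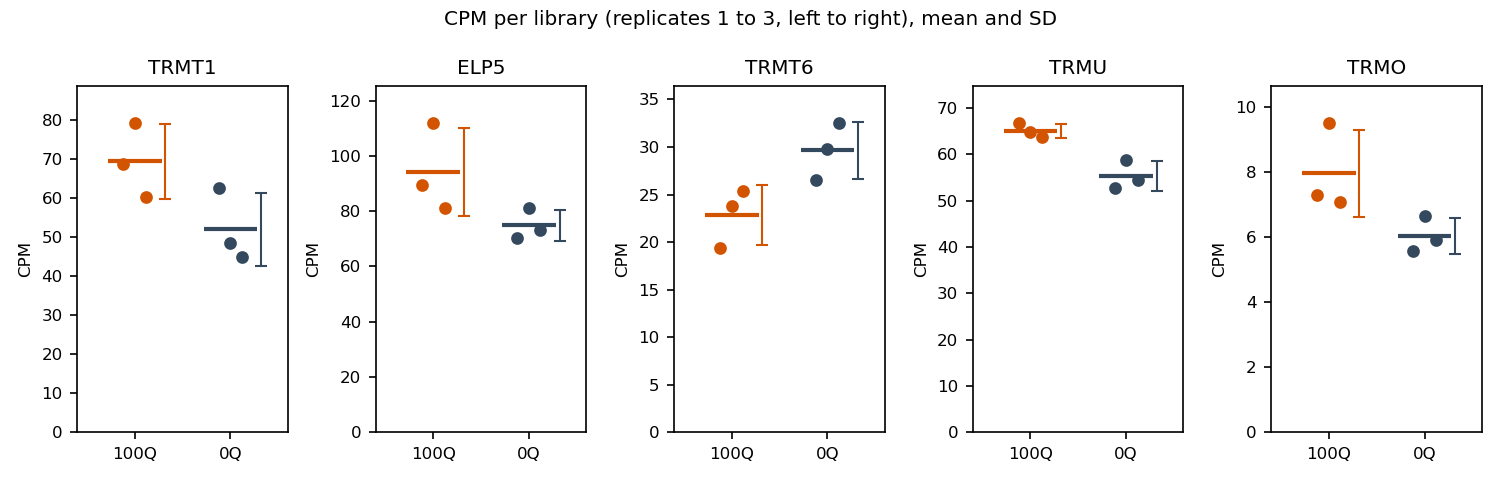
CPM in each library of 100Q (left) and 0Q (right) for the 5 members with an unadjusted p under 0.05 or with groups apart; points are replicates 1 to 3, horizontal lines are means and bars are the SD. TRMU and TRMO lie higher in every 100Q library, TRMT6 lies lower in every 100Q library, and TRMT1 and ELP5 overlap between groups.

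Position 37, next to the anticodon on its 3′ side, carries bulky purines. TRIT1, which adds an isopentenyl group to adenosine, had 24.7, 21.8 and 20.4 CPM in 100Q, against 27.0, 23.9 and 26.2 CPM in 0Q. CDK5RAP1, which adds a methylthio group to the product of TRIT1 in mitochondria, had 44.7, 37.3 and 42.6 CPM in 100Q, against 36.3, 35.1 and 42.9 CPM in 0Q. Groups overlapped for both, at -0.21 ± 0.15 and 0.13 ± 0.13 (SE). CDKAL1, the methylthiotransferase for threonylcarbamoyl adenosine in cytosolic lysine tRNA, had -0.06 ± 0.18.

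Threonylcarbamoyl adenosine is made by the KEOPS complex, of which OSGEP is the catalytic subunit and TPRKB an accessory one, and TRMO methylates it further. TRMO (chromosome 9, 97904489 to 97922500) had 7.29, 9.51 and 7.10 CPM in 100Q, against 5.56, 6.64 and 5.92 CPM in 0Q, and the groups did not overlap. Its log2 fold change of 0.38 had the widest upper limit of the list (95% interval -0.29 to 1.06). OSGEP had 39.7, 44.8 and 43.3 CPM in 100Q, against 46.3, 36.5 and 31.6 CPM in 0Q, with overlap and a log2 fold change of 0.16 ± 0.15 (SE). TPRKB had -0.15 ± 0.17. Without 0Q replicate 3 the values were 0.04 for OSGEP and -0.04 for TPRKB.

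Wybutosine of phenylalanine tRNA starts with the guanosine methyltransferase TRMT5 and is built by TYW1, TRMT12, TYW3 and LCMT2. TRMT5 had 31.8, 30.3 and 37.4 CPM in 100Q, against 41.6, 35.0 and 39.0 CPM in 0Q, and TYW1 had 35.9, 25.02 and 23.2 CPM in 100Q, against 22.5, 24.6 and 23.9 CPM in 0Q. The high mean of TYW1 in 100Q came from replicate 1: its log2 fold change of 0.23 was 0.02 without that library, and that of TRMT5 was -0.20 ± 0.14 (SE). The later enzymes had 0.12 ± 0.20 (TRMT12), -0.14 ± 0.14 (TYW3) and -0.0007 ± 0.18 (LCMT2), so both signs occurred along the pathway. ADAT1, which deaminates adenosine of alanine tRNA, had 32.8, 20.5 and 36.0 CPM in 100Q, against 24.2, 30.5 and 29.5 CPM in 0Q, with 100Q libraries on both sides of 0Q. Of the 12 members at this position 6 had positive and 6 negative fold changes, and none had an unadjusted p under 0.05.

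Methylation in the anticodon loop outside the wobble position is shared by TRDMT1, which methylates a cytosine in aspartate tRNA among others, and by METTL2A, METTL2B, METTL6 and METTL8, which methylate another cytosine. TRDMT1 ran from 7.76 to 16.9 CPM in 100Q and from 14.7 to 18.8 CPM in 0Q, with the low value in 100Q replicate 2. Its log2 fold change of -0.28 (95% interval -0.80 to 0.25) was -0.04 without that library. METTL8, the mitochondrial enzyme, had 27.8, 29.5 and 33.3 CPM in 100Q, against 26.6, 28.6 and 24.6 CPM in 0Q, with overlap and 0.19 ± 0.14 (SE), and METTL6, which acts on serine tRNA, had 0.16 ± 0.15.

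METTL2A and METTL2B differ at 15 of the 1134 coding bases of their canonical transcripts (98.7% identity, no gaps), and the longest stretch without a difference is 331 bases. Reads from such a stretch fit both genes, and all 6 libraries gave both genes counts with fractions. Among stretches of 60 coding bases within an exon of each gene, the first with the most differences shows how few bases tell them apart. It is from the GENCODE 44 transcripts (5′ to 3′, plus strand, differing bases in capitals, chr17:62426408-62426467 for METTL2A and chr7:128479267-128479326 for METTL2B):
METTL2A: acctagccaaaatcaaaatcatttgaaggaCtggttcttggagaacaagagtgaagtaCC
METTL2B: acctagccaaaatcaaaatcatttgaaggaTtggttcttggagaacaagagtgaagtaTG
METTL2B had 51.4, 49.0 and 55.3 CPM in 100Q, against 52.2, 60.4 and 61.6 CPM in 0Q, a log2 fold change of -0.15 ± 0.11 (SE), and METTL2A had 0.03 ± 0.14. The share of the pair given to METTL2A ran from 46.7% in 100Q replicate 2 to 50% in 100Q replicate 1, and was 50.8%, 38.9% and 44.9% in 0Q. Summed over the pair, which does not depend on how shared reads were split between them, the level was 100.1 ± 7.08 CPM in the 100Q libraries, against 105.5 ± 6.44 CPM in the 0Q libraries (SD, 3 each), and the groups overlapped.

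Methyltransferases of the tRNA body held the members with the largest positive and the most negative fold change outside the wobble group. TRMT1 (chromosome 19, 13104902 to 13117567), which dimethylates a guanosine between the D and anticodon stems, had 68.9, 79.3 and 60.3 CPM in 100Q, against 62.7, 48.5 and 44.9 CPM in 0Q. A single library on either side overlapped, 100Q replicate 3 and 0Q replicate 1. Its log2 fold change was 0.41 (95% interval 0.11 to 0.70), from 0.30 to 0.56 when a library was left out, and its adjusted p was 0.987, with 0.231 as the lowest of the alternatives, in the fit without a filter on low counts (edgeR, Benjamini-Hochberg). TRMT6 (chromosome 20, 5937228 to 5950558), the partner of the adenosine methyltransferase TRMT61A, had 19.4, 23.8 and 25.4 CPM in 100Q, against 26.6, 29.8 and 32.5 CPM in 0Q. All libraries of 100Q lay below those of 0Q, with a log2 fold change of -0.37 (95% interval -0.70 to -0.03), and -0.47 to -0.26 when a library was left out (edgeR, Benjamini-Hochberg adjusted p = 0.987). TRMT61A itself had 0.10 ± 0.25 (SE), over 12.7 to 29.0 CPM in 100Q and 15.2 to 22.6 CPM in 0Q. The ratio of TRMT61A to TRMT6, per kilobase, was 0.78 ± 0.29 in 100Q and 0.56 ± 0.11 in 0Q (SD, n = 3 per group), and the groups overlapped.

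TRMT2A, which methylates uridine in the T loop, had 88.4, 97.3 and 83.0 CPM in 100Q, against 88.6, 78.3 and 70.9 CPM in 0Q, with overlap and a log2 fold change of 0.17 ± 0.11 (SE). The guanosine methyltransferase METTL1 and its partner WDR4 had -0.22 ± 0.26 and -0.03 ± 0.14. For METTL1 the sign turned without 0Q replicate 3 (0.06). NSUN6, which methylates cytosine in the acceptor stem, had -0.34 ± 0.23, over 10.4 to 12.3 CPM in 100Q and 10.7 to 16.9 CPM in 0Q. The guanosine methyltransferases TRMT10A and TRMT11 had -0.16 ± 0.21 and -0.01 ± 0.13, and the ribose methyltransferase TRMT13 had 0.08 ± 0.15. Of these 10 members, with TRMT1, TRMT6, TRMT61A and TRMT2A, 4 had positive and 6 negative fold changes.

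Pseudouridine synthases had log2 fold changes from -0.08 to 0.07 over 6 members. PUS1, which acts in cytosol and mitochondria, had 53.9, 72.8 and 55.1 CPM in 100Q, against 68.8, 55.3 and 62.4 CPM in 0Q. TRUB2, a mitochondrial synthase, had 46.4, 40.3 and 49.4 CPM in 100Q, against 51.2, 45.0 and 49.1 CPM in 0Q. The groups overlapped for both, with log2 fold changes of -0.05 ± 0.13 and -0.08 ± 0.12 (SE). TRUB1, which acts in the T loop, had -0.05 ± 0.13, PUS7 -0.03 ± 0.12, PUS10, another T loop enzyme, -0.04 ± 0.33 and PUS3, an enzyme of the anticodon arm, 0.07 ± 0.24. When a library was left out, PUS3 ran from -0.06 to 0.34 and PUS10 from -0.26 to 0.14.

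Dihydrouridine synthases and DTWD1, which adds an aminocarboxypropyl group to uridine, were the last group. DUS1L had 147, 125 and 136 CPM in 100Q, against 154, 128 and 135 CPM in 0Q, nearly the same values in both groups. DUS3L had 51.0, 54.0 and 43.4 CPM in 100Q, against 43.8, 45.6 and 42.4 CPM in 0Q, and DTWD1 had 11.9, 8.01 and 9.83 CPM in 100Q, against 5.98, 9.90 and 9.21 CPM in 0Q. Groups overlapped for the 3 genes, with log2 fold changes of -0.03 ± 0.09, 0.16 ± 0.12 and 0.25 ± 0.29 (SE), and DUS2 had 0.02 ± 0.17.

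Level per kilobase of the canonical transcript, averaged over all libraries, spanned 0.667 CPM for DTWD1 to 128 CPM for TRMT112, with DUS1L (61.5), WDR6 (57.2), ELP5 and ELP6 next below TRMT112. The median was 12.9 CPM per kilobase for the wobble members, 7.97 for those at position 37 and 9.16 for those elsewhere, with wide overlap. At the low end stood PUS10 (1.78) and TRDMT1 (1.18). Catalytic subunits did not stand above their partners as a rule: ELP3 (8.28) lay below ELP2, ELP5 and ELP6 but above ELP4 (2.59). CTU1 at 3.45 lay below CTU2 at 14.0, TRMT61A (5.91) below TRMT6 (8.96), METTL1 (9.37) below WDR4 (18.2) and OSGEP (20.4) below TPRKB (30.9). ADAT2 (6.69) lay above ADAT3 (6.05), and FTSJ1 (30.0) lay between WDR6 and THADA (7.03).

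**Figure D4:**
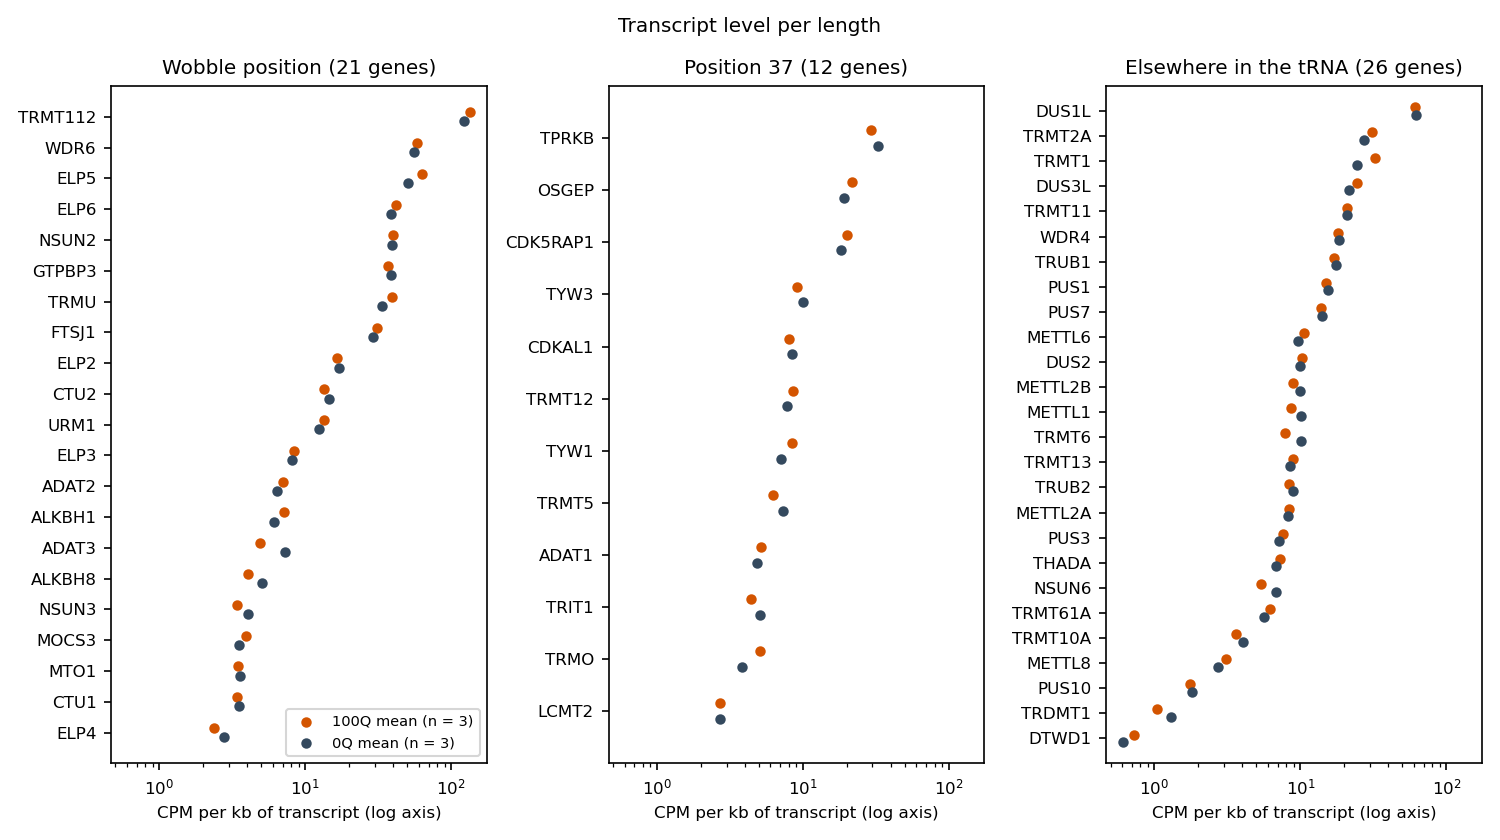
Mean level of each member in 100Q and 0Q as CPM per kilobase of its canonical transcript (log axis), in 3 panels by site of action, ordered by the mean over all libraries. Levels span 0.667 (DTWD1) to 128 (TRMT112), and the symbols of the 2 groups lie close together at nearly every gene, with the widest gap at ADAT3.

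A further list of 38 tRNA modification genes that are not members, all of them tested, gave a like result. None passed with edgeR, 2 had an unadjusted p under 0.05, 5.26% of the list against 4.73% of all genes tested, and 15 fold changes were positive and 23 negative, with a median of -0.03. The 2 genes were GON7, a KEOPS subunit, and PUSL1, a pseudouridine synthase. GON7 had 8.82, 15.8 and 10.5 CPM in 100Q, against 18.9, 17.0 and 16.7 CPM in 0Q, a log2 fold change of -0.61 ± 0.23 (SE), and PUSL1 had 33.6, 35.8 and 35.7 CPM in 100Q, against 44.1, 45.4 and 39.3 CPM in 0Q, at -0.29 ± 0.12 (edgeR, Benjamini-Hochberg adjusted p = 0.987 for both). Both lay lower in every 100Q library.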

How the data were processed

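RNA of HEK293T cells was profiled in 6 libraries. Per the labels' protocols, RNA was extracted with TRIzol and libraries followed MSR-seq. The authors deposited estimated counts per Ensembl gene with no scaling. FastQC, STAR and RSEM are named, per the submitters' processing notes, and the series design names hg38. Tool versions, annotation and strand setting: not given in the sources used here. Cells were grown in triplicate, per the labels' protocols, which do not say whether the 3 cultures were independent; if they were not, a p-value reflects only technical spread.

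Counts were rounded and tested with edgeR 4.0.16 in R 4.3.3 (TMM, default filter with minimum count 10, quasi-likelihood test, Benjamini-Hochberg adjusted p under 0.05 over all genes). Within groups, no pair of replicates was a duplicate: the chi-square of their counts was 5.23 to 14.4 times its degrees of freedom. Symbols, coordinates and transcripts came from GENCODE 44, which matched 62541 identifiers; the rest held 0.129% of counts. The members and lists were chosen with earlier results of these data known. All members were named; values in every library were given for those with an unadjusted p under 0.05 or groups apart and, in each reaction group, for the 2 with the smallest p and the most abundant. Partner ratios were chosen after the files were read. Of the members, 19 had fractional counts and 32 have exons that overlap another gene. Alternatives were library size without factors, RLE factors, a stricter or no count filter, the wobble list without members that also act elsewhere, the replicate number as a block, DESeq2 1.42.0, limma-voom (limma 3.58.1) and each library left out. In simulated data over 14905 genes for 100Q against 0Q, the test recovered 56% of genes changed 1.5-fold and 84% at 2-fold. There, 200 genes above a floor of mean CPM were changed, with the spread taken from the trend over all genes. It made 172 calls, 6 of them wrong, against 2 genes passing in the data. With more changed genes the adjustment is less strict, so recovery at the strictness met in the data was not measured. Of the marker list and of the further tRNA modification list, 1 gene each is not reported here; the first is left out of the summed marker level.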

Additional observations from a re-analysis of the deposited data

How the results depend on the processing

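No member passed in any of 13 alternatives. Of 766 member values under them, 704 had the sign of the reported fit and 62, in 25 members with a reported log2 fold change of at most 0.22 in size, had the other sign; 34 members changed sign in none. The count of all genes called was 71 without a filter on low counts, 1 with a mean count of at least 50, 14 with DESeq2, 1 with limma-voom and 0 to 6 when a library was left out, against 2. The count of members with an unadjusted p under 0.05 was 1 to 4 when a library was left out: 1 without 100Q replicate 2 and 2 without 100Q replicate 1, against 4. The wobble median of 0.04 became -0.039 without members that also act elsewhere, and ran from -0.022 to 0.090 when a library was left out; the median of the other members ran from -0.0066 to 0.048. The causes were not tested. With the replicate number as a block, 3 genes and 0 members passed, 4 members had an unadjusted p under 0.05, and the medians were 0.05 for wobble and 0.0019 for other members. The labels state no pairing of same-numbered libraries. Their deviations from the group mean correlated at 0.0014, -0.020 and 0.081 for replicates 1, 2 and 3. The last was the highest of all pairs across groups, and 100Q replicate 2 correlated best with 0Q replicate 1 (0.07). With 3 libraries per group, such small correlations cannot decide whether the libraries were paired. The 3 members with the lowest CPM had wide log2 intervals. These were -0.29 to 1.06 for TRMO, -0.75 to 0.67 for CTU1 and -0.75 to 0.66 for PUS10. Intervals were also wide for DTWD1 (-0.37 to 0.86, mean 9.14 CPM) and ADAT3 (-1.15 to 0.05, 9.67 CPM). The same held for METTL1 (-0.77 to 0.33, 12.9 CPM) and TRMT61A (-0.44 to 0.64, 19.0 CPM), at higher levels. The part of depth in this was not tested.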
